A study of Mus musculus with 6 samples.

Results

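The EGF family ligands Hbegf, Areg, Ereg, Tgfa, Btc and Egf and the ERBB receptors Egfr, Erbb2, Erbb3 and Erbb4 were followed in subcutaneous tumours of G422, a mouse glioblastoma line. The titles and source labels give G422 for all 6 tumours, while a cell line field carries a number that runs up by 1 from sample to sample, and the titles were followed. The members were found by gene symbol, and each of the 10 symbols matched 1 Ensembl gene ID among the 54532 IDs of the count matrix. The shNgb tumours (3) grew from G422 cells carrying a lentiviral hairpin named for Ngb, the gene of neuroglobin, an oxygen-binding globin of neurons. The shVec tumours (3) grew from G422 cells carrying the vector. All hosts were Kunming mice, an outbred stock, and the labels name no other treatment. The sources used here give neither the age of the mice nor whether the cells were a clone or a pool. The labels do not tie each tumour to 1 mouse, so any p-value describes variation among these 6 tumours alone.

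ERBB receptors are cell-surface tyrosine kinases that pair with one another when an EGF family ligand binds, and then signal through RAS and ERK, PI3K and STAT3. The ligands are made as membrane-anchored precursors and released by cell-surface proteases, mostly ADAM17. Egfr is the receptor for EGF, TGF-alpha, amphiregulin, betacellulin, epiregulin and HB-EGF, whereas Erbb2 binds no known ligand and acts as a partner of the other receptors. In human glioblastoma EGFR is among the most often amplified genes.

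Ngb, the gene the hairpin is named for, had 18, 19 and 11 reads in the shNgb libraries, against 28, 23 and 13 in the shVec libraries, and the groups overlapped. The design text speaks of transfection with Ngb rather than of its knockdown, and these few reads do not show which was done, so shNgb is used as the label of the group. The libraries held 21018697 to 25620667 reads in shNgb tumours and 19630319 to 22427004 in shVec tumours. Of the glioma and neural progenitor markers, Nes stood at 383 to 439 CPM (read counts scaled to library size by TMM) in shNgb and 477 to 545 CPM in shVec. These ranges did not overlap, as was so for 7.1% of all genes tested between the groups. Gfap had 0 to 6 reads and Olig2 had 0 reads in every library. Sox2 stood at 13.8 to 22.6 CPM in shNgb and 16.02 to 20.4 CPM in shVec. Vim stood at 4729 to 5010 CPM in shNgb and 4607 to 5220 CPM in shVec and took most of the sum of the 7 listed markers. The labelled cell type was thus met by some of these markers and not by others, and the listed S100b and Fabp7 are not given here.

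Ereg, Areg and Btc lie in 1 ligand cluster on chromosome 5 in GENCODE M21 (build GRCm38). Ereg occupies chr5:91074622-91093646 and Areg chr5:91139599-91148432, both on the plus strand and 45952 bases apart. Btc lies at chr5:91357261-91402994 on the minus strand, 208828 bases beyond Areg. Epgn, which encodes the ligand epigen, precedes Ereg at chr5:91027464-91035215 and had 2 to 10 reads per library. Ereg has no entry among the promoter sequences used. The 250 bases before the annotated start of Areg and of Btc are shown, and their part in the levels was not tested. They are RefSeq sequences of build GRCm38.p6, Areg from chr5:91139349-91139598 (plus strand) and Btc from chr5:91402995-91403244 (minus strand), written 5′ to 3′ with motif matches in capitals.
Areg: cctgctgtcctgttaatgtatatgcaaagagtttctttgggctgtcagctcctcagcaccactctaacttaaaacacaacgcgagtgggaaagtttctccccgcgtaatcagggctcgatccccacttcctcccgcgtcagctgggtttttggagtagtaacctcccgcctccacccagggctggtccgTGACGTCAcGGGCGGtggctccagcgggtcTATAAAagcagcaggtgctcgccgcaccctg
Btc: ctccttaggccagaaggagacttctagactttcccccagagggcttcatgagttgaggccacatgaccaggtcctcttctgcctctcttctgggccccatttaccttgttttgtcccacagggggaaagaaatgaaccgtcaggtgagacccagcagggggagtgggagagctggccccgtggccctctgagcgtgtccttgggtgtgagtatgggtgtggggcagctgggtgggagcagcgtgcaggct
Motifs were searched on both strands. The cyclic AMP response element (CRE) was searched as TGACGTCA and the AP-1 motif as TGANTCA. The TATA box was searched as TATAAA, the GC box as GGGCGG and the E-box as CACGTG. The Areg window held a CRE at 61 to 54 bases before the start, a GC box at 52 to 47 bases and a TATA box at 31 to 26 bases, none of which overlapped another. The Btc window held none of the 5 motifs, and neither did the windows of Erbb2, Erbb4 and Egf. Among 32851 annotated start windows of this length, 1.55% held the CRE, 6.75% the AP-1 motif, 12.4% the TATA box, 32.7% the GC box and 6.02% the E-box. These letter matches describe the windows and are not measured binding sites.

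Hbegf was the most abundant member in every tumour, and Erbb2 and Egfr were the receptors with substantial reads. Levels between genes are compared as the authors' deposited FPKM, which scales reads for gene length. Hbegf averaged 49.2 FPKM over the 6 tumours (range 38.7 to 59.8), and its lowest value was 2.52 times the highest Areg value (1.24 times as CPM per kilobase of annotated exons). Areg (mean 9.49, range 5.75 to 15.3 FPKM), Erbb2 (8.15, 6.84 to 9.21) and Ereg (7.21, 4.65 to 11.5) followed with overlapping ranges. Areg exceeded Erbb2 in 3 of 6 tumours and Erbb2 exceeded Ereg in 3 of 6, so these neighbours were not separated. Btc (2.91, 2.56 to 3.27 FPKM) and Egfr (2.80, 1.83 to 3.61) came next and likewise overlapped each other, while both lay below every Ereg value.

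Egf, Tgfa and Erbb3 were scarce and Erbb4 was not detected. Egf, the founding ligand of the family, lay between 0.0711 and 0.117 FPKM, and the lowest Egfr value was 15.7 times the highest Egf value. Tgfa, which encodes TGF-alpha, averaged 0.0661 FPKM and Erbb3, a neuregulin receptor with little kinase activity of its own, 0.0615 FPKM, and their ranges overlapped. Erbb4, another neuregulin receptor, had 0 reads in all 6 libraries, and the 3 reads that a count of 0 allows correspond to 0.115 to 0.153 CPM per library (counting error only).

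**Figure D1:**
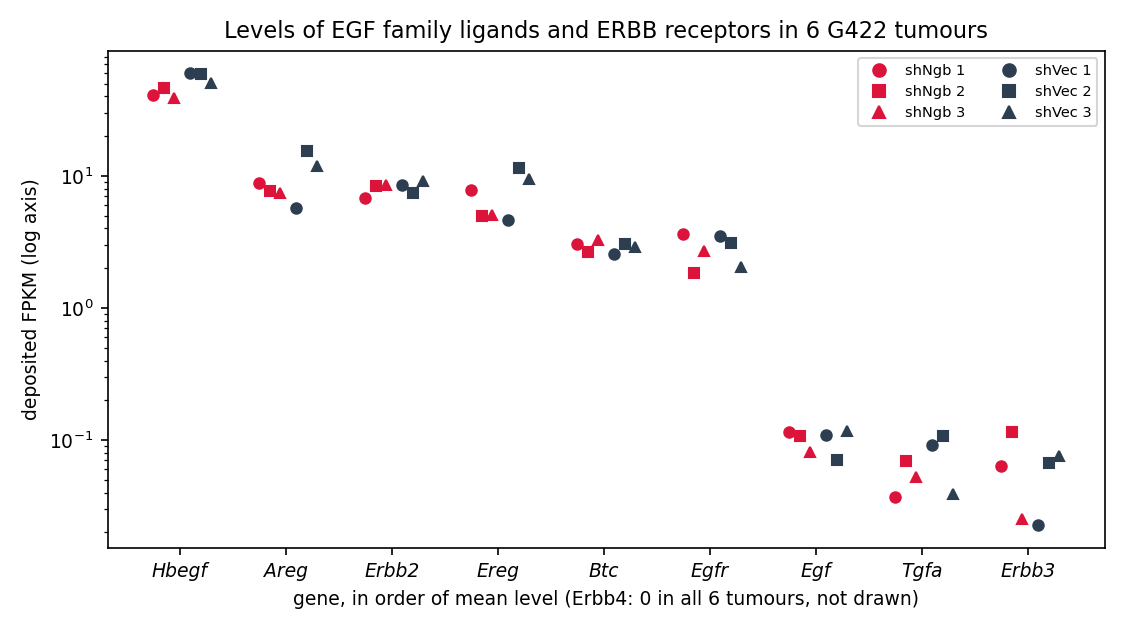
Deposited FPKM (log axis) of each member in each tumour, shNgb in crimson and shVec in dark blue, with genes in order of their mean. Hbegf lies between 38.7 and 59.8 FPKM, above all other members, and Egf, Tgfa and Erbb3 lie at or below 0.117 FPKM.

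Hbegf took the largest share of the ligand pool and Erbb2 that of the receptor pool in every tumour. Hbegf made up 71.1% ± 3.67 of the summed FPKM of the 6 ligands in shNgb and 71.9% ± 8.68 in shVec (SD, n = 3 each). Areg made up 13.6% ± 1.04 in shNgb and 13.6% ± 5.03 in shVec, and Ereg 8.08% to 12.7% in shNgb and 6.38% to 12.9% in shVec. Btc had 4.98%, 4.32% and 5.995% of the ligand FPKM in the shNgb tumours, against 3.51%, 3.40% and 3.85% in the shVec tumours, a description for which no test was made. The shares did not overlap although the Btc levels did, and the ligand sum they are divided by was lower in every shNgb tumour. Of the receptor FPKM, Erbb2 took 74.0% ± 8.20 in shNgb and 74.0% ± 6.39 in shVec, and Egfr 25.3% ± 8.38 and 25.5% ± 6.53 in the same order. The summed ligands stood at 61.0, 61.5 and 54.5 FPKM in shNgb tumours, against 72.9, 89.0 and 75.0 FPKM in shVec tumours. Every shNgb sum was below every shVec sum, whereas the receptor sums overlapped (10.3 to 11.3 FPKM in shNgb and 10.6 to 12.05 FPKM in shVec). Hbegf made up 66.3% to 81.9% of each ligand sum and every other ligand overlapped between the groups, so this largely restates the Hbegf values. Among all tested genes the groups did not overlap in 7.1% (3.43% lower in shNgb), and the sums were not tested.

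The Hbegf level depends on the gene length used. Over the union of GENCODE M21 exons (4834 bases) Hbegf had 19.2 to 29.4 CPM per kilobase, and the deposited FPKM was 2.01 to 2.03 times that value. On that scale Hbegf still ranked first, at 54.8% ± 4.43 of the ligand sum in shNgb and 56.3% ± 11.1 in shVec (SD, n = 3 each), with 49.1% in the lowest tumour, shVec replicate 2. The order of the mean levels of all 10 members was unchanged.

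Hbegf was the only tested member whose groups did not overlap, and it stood lower in shNgb tumours. Hbegf (ENSMUSG00000024486) had 98.1, 111 and 92.6 CPM in the shNgb tumours (2034, 2689 and 2417 reads), against 142, 141 and 121 CPM in the shVec tumours (3124, 2795 and 2377 reads). The highest shNgb value, that of replicate 2, lay below the lowest shVec value, that of replicate 3. HB-EGF, its product, is the heparin-binding ligand of Egfr and Erbb4. The log2 fold change was -0.42 (SE 0.10, 95% interval -0.64 to -0.20), a fold of 0.745 (0.640 to 0.868). By p in edgeR's quasi-likelihood test Hbegf had rank 10 of 15203, a description only, since members were chosen with earlier results of these data known. Its unadjusted p in that test was 0.00184 and its adjusted p 0.9997. The difference therefore failed the correction for all genes tested, and Hbegf was not called. In these bulk samples fewer cells of a type and less RNA per cell cannot be told apart.

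No member of the family was called. Of the 10 members, 7 passed the low-count filter (Hbegf, Areg, Ereg, Btc, Egf, Egfr and Erbb2), and edgeR called 0 of them at an adjusted p under 0.05, with 1, Hbegf, at an unadjusted p under 0.05. Over all 15203 genes tested, edgeR called 0, or 0%, and 2.58% had an unadjusted p under 0.05. In the direction of Hbegf, lower in shNgb, 1.22% of all genes had an unadjusted p under 0.05, and 1.35% in the other direction. DESeq2 and limma-voom also called 0 members, each with 1 at an unadjusted p under 0.05, and DESeq2 called 0.0313% of the 15960 genes to which it gave an adjusted p. Among all genes, the groups did not overlap in 7.1% (3.43% lower in shNgb, 3.67% higher), so 1 of 7 members is a count that allows no statement about the family. The median log2 fold change was -0.09 over the 7 members (5 negative, 2 positive) and 0.0026 over all tested genes, of which 49.1% were negative. Members enter these figures only if they passed the filter, which Tgfa, Erbb3 and Erbb4 did not.

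**Figure D2:**
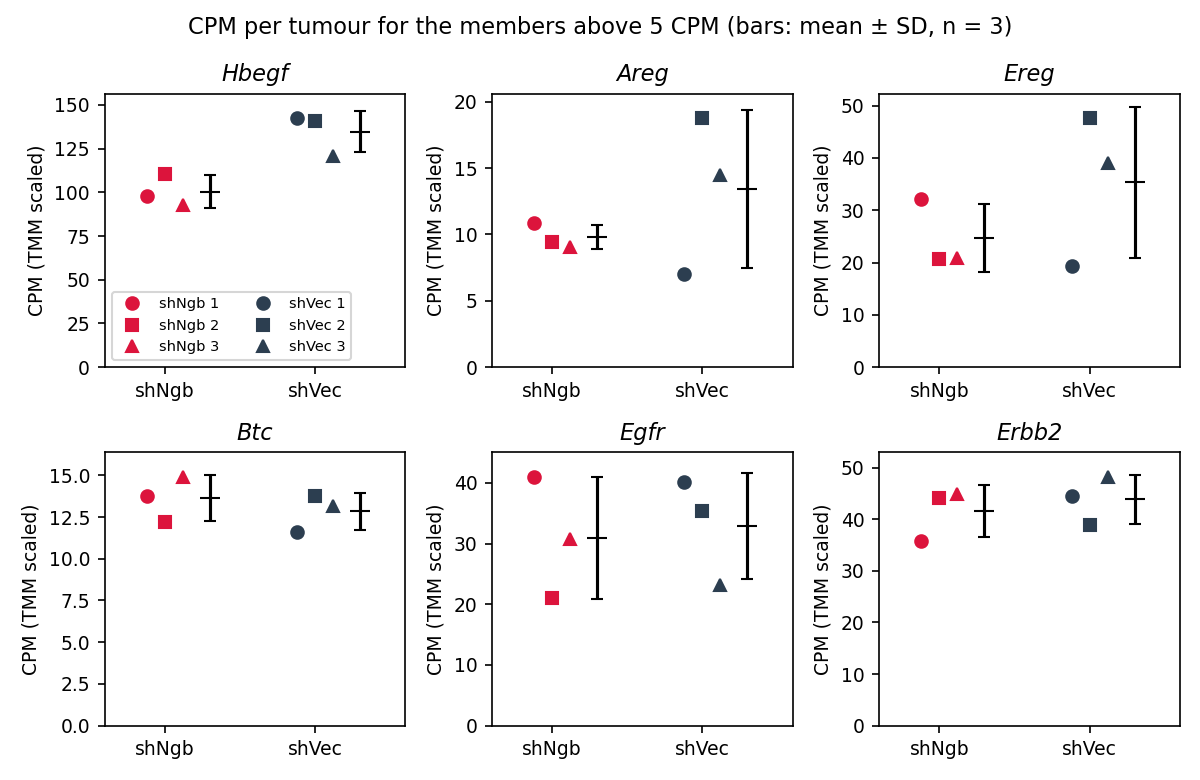
CPM of the 6 members above 5 CPM in each tumour, shNgb left of shVec in every panel, with mean ± SD (n = 3) beside the points and each axis starting at 0. Hbegf is the panel in which the groups do not overlap (92.6 to 111 CPM in shNgb, 121 to 142 CPM in shVec).

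The marker values of other cell types beside Hbegf varied in both groups. The summed CPM of the 6 macrophage markers, all with reads, ranged from 85.4 to 219 in shNgb and from 70.8 to 141 in shVec. That of the 6 fibroblast markers, all with reads, ranged from 1117 to 2369 in shNgb and from 1633 to 1953 in shVec, and that of the 5 endothelial markers from 44.8 to 59.6 and from 51.1 to 52.3. These ranges overlapped between the groups. The sum of the 5 skeletal muscle markers, 1 of 12 lists, did not, at 5.74 to 7.03 CPM in shNgb and 7.23 to 19.6 CPM in shVec. The upper end was shVec replicate 2 alone, with 7.33 and 7.23 CPM in the other shVec tumours. Among all tested genes the groups did not overlap in 7.1%. The T and NK cell, B cell, neutrophil, mast cell and adipocyte sums were at or below 14.9 CPM in every library, with the neutrophil marker Ly6g at 0. The part of these cells in the Hbegf values was not tested.

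Areg and Ereg had lower means in shNgb, but the groups overlapped, with shVec replicate 1 low in both genes. Amphiregulin, the product of Areg, and epiregulin, that of Ereg, are lower-affinity ligands of Egfr that are induced in wound repair and inflammation. Areg had 10.8, 9.46 and 9.08 CPM in the shNgb tumours, against 7.02, 18.7 and 14.5 CPM in the shVec tumours. Ereg had 32.1, 20.8 and 20.9 CPM in the shNgb tumours, against 19.3, 47.6 and 39.1 CPM in the shVec tumours. In both genes shVec replicate 1 held the lowest of the 6 values and shVec replicates 2 and 3 the 2 highest. The log2 fold change was -0.45 for Areg (SE 0.32, 95% interval -1.19 to 0.29) and -0.52 for Ereg (SE 0.35, interval -1.36 to 0.31), with an edgeR adjusted p of 0.9997 for each. Without shVec replicate 1, the lowest in both genes, the log2 fold changes were -0.76 and -0.82, and a larger difference follows from that choice. Their edgeR unadjusted p was 0.00311 and 0.00589, and the adjusted p 0.9998 for both. In that fit 3 of 7 members instead of 1 had an unadjusted p under 0.05, as did 465 of all 15572 genes. Without shVec replicate 2 the log2 fold changes of Areg and Ereg were -0.13 and -0.25 (edgeR unadjusted p = 0.672 and 0.496).

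**Figure D3:**
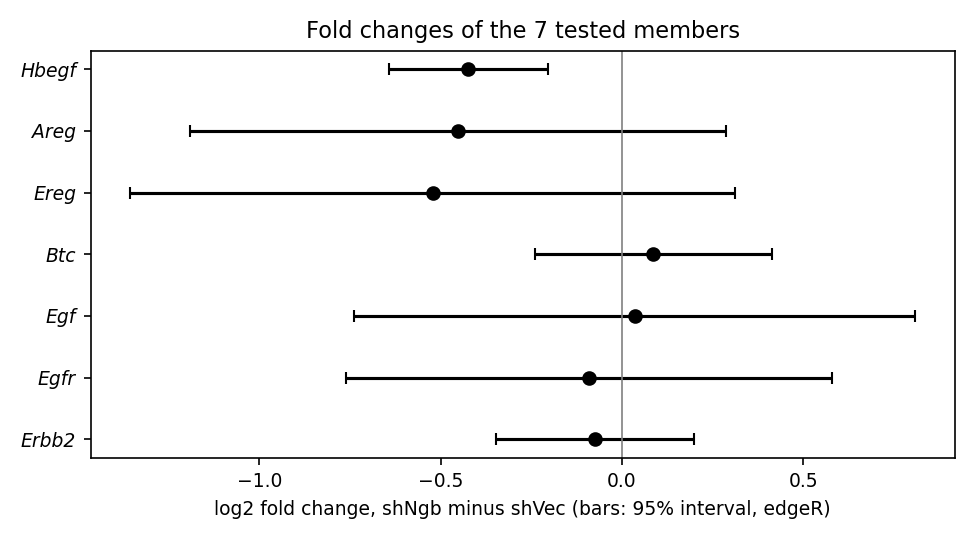
Log2 fold changes, shNgb minus shVec, of the 7 tested members with 95% intervals from edgeR. The interval of Hbegf (-0.64 to -0.20) lies below 0, the other 6 include 0, and no member passed the adjusted threshold.

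Over the 6 tumours the proportion of Areg to Ereg nevertheless varied less than either gene did. The ratio of Areg to Ereg reads was 0.338, 0.455 and 0.434 in the shNgb tumours, against 0.364, 0.394 and 0.370 in the shVec tumours. It spanned 1.348-fold over the 6 tumours, while Areg itself spanned 2.67-fold and Ereg 2.47-fold. The shared movement lay mainly in the shVec tumours. In shNgb alone Areg stayed at 9.08 to 10.8 CPM while Ereg ran from 20.8 to 32.1 CPM, and the ratio was lowest where Ereg was highest. The ratio of Btc to Ereg reads spanned 2.46-fold, from 0.289 in shVec replicate 2 to 0.712 in shNgb replicate 3. Btc itself spanned only 1.28-fold, so this ratio largely restates the Ereg values.

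Across the 6 tumours, Ereg was the gene whose profile lay closest to that of Areg, and Areg the closest to Ereg. Likeness was the root mean square difference of centred log2 CPM over the 6 libraries, taken against 10029 other protein-coding genes with a mean of at least 5 CPM. It was 0.15 for the pair, against a spread about its own mean of 0.46 for Areg and 0.50 for Ereg. It was also the smallest among the 15 pairs of the 6 members above 5 CPM, ahead of Erbb2 and Btc (0.21) and far from Egfr and Areg (0.63), the most distant pair. The next genes to Areg were Bcl6 (0.17), a transcriptional repressor of the germinal centre, and Ptgs2 (0.18), which encodes the inducible prostaglandin synthase COX-2. The next genes to Ereg were Rgs16 (0.20), which shortens G protein signals, and Insyn1 (0.20), an inhibitory synapse factor. Ptgs2 had 53.9, 52.3 and 44.4 CPM in the shNgb tumours, against 49.0, 111 and 91.7 CPM in the shVec tumours, so that shVec replicates 2 and 3 were again the highest. With 6 libraries and this many genes compared, such closeness is a description without a test.

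**Figure D4:**
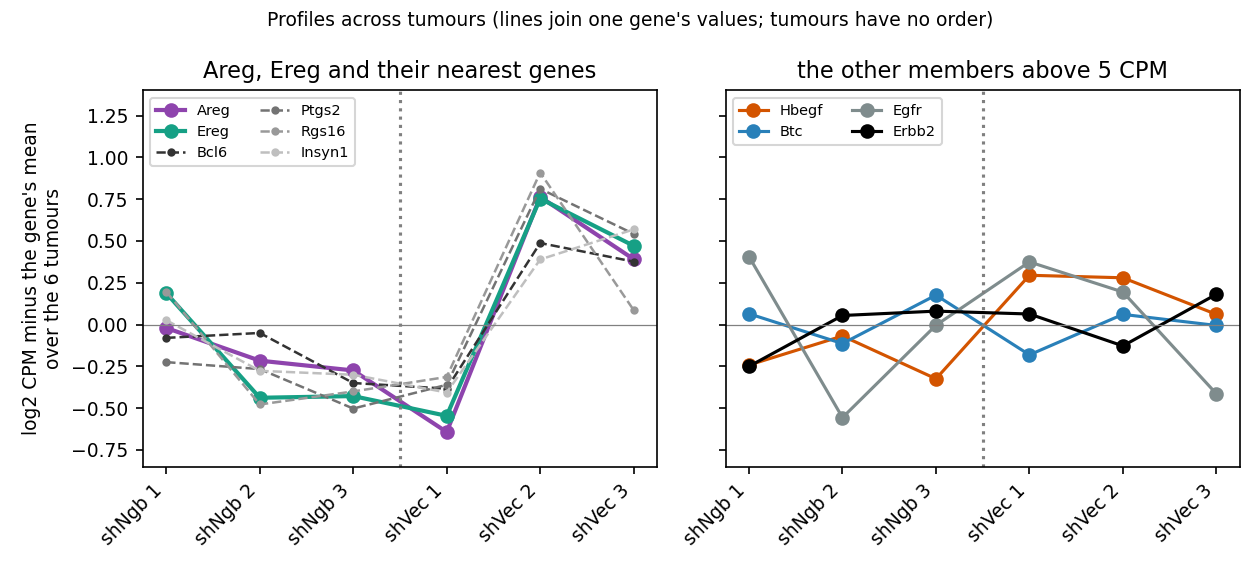
Log2 CPM minus each gene's mean over the 6 tumours, left for Areg, Ereg and their nearest genes, right for the other members above 5 CPM. Lines join the values of a gene and give no order of tumours, and the dotted line separates shNgb from shVec. Areg and Ereg lie close to each other, more so in shVec than in shNgb, and are highest in shVec replicates 2 and 3.

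Of the 12 marker lists, some had their highest or lowest sum in the tumour that was low in Areg and Ereg. With this many lists, any 1 of 6 tumours can be highest or lowest in some, so this does not set the tumour apart. The glioma and neural progenitor sum was highest in shVec replicate 1 (5718 CPM), against 5184 to 5416 CPM in shNgb and 5460 and 5123 CPM in the other shVec tumours. In shVec replicate 1 the summed CPM of the 11 epithelial markers was 446, the highest of the 6 libraries, against 219 to 320 in shNgb and 224 and 250 in the other shVec tumours. Most of it was the simple-epithelial keratin Krt8, at 310 CPM there, while the basal epidermal markers Krt5 and Krt1 were at 0 in all libraries and Krt14 had 0 to 4 reads. The macrophage sum was 85.4, 174 and 219 CPM in the shNgb tumours, against 70.8, 141 and 117 CPM in the shVec tumours. It was thus lowest in shVec replicate 1, but the highest, shNgb replicate 3, had only 9.08 CPM of Areg and 20.9 CPM of Ereg. The mast cell and basophil sum was also lowest in shVec replicate 1, at 0.592 CPM, but it rested on few reads. Kit gave 12 of them, and Cpa3 had its only read of the 6 libraries in that tumour. The part of these cells in the Areg and Ereg values was not tested. An antisense gene, Gm19610, with 114 to 153 reads per library, shares 141 of the 4128 exon bases of Ereg, and its reads cannot be told from those of Ereg there because the library kit does not mark strand.

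Btc, the gene of betacellulin, a ligand of both Egfr and Erbb4, was the steadiest of the tested members. It had 13.8, 12.2 and 14.9 CPM in the shNgb tumours, against 11.6, 13.8 and 13.1 CPM in the shVec tumours. The groups overlapped, and the highest tumour was 1.28 times the lowest. The log2 fold change was 0.09 (SE 0.14, 95% interval -0.24 to 0.41), which leaves a fold of 0.846 to 1.33.

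Egf and Tgfa stayed near the limit of detection. Egf had 27, 30 and 24 reads in the shNgb tumours, against 27, 16 and 26 in the shVec tumours, or 1.15 ± 0.20 CPM and 1.12 ± 0.28 CPM in the same order (SD, n = 3 each). The Egf groups overlapped, and the interval of its log2 fold change, -0.74 to 0.81, is too wide to show a difference of less than about that size. Tgfa had 5, 11 and 9 reads in the shNgb tumours, against 13, 14 and 5 in the shVec tumours. It did not pass the filter, and a two-sided exact permutation test of log2(CPM + 0.1) gave p = 0.4, where 0.1 is the smallest that 3 tumours against 3 allow. Exons of antisense genes cover 607 and 500 bases of Egf, and both of those genes had 0 reads.

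Of the receptors, Erbb2 was steady and Egfr varied within both groups. Erbb2 (ENSMUSG00000062312, chr11:98412470-98437716, plus strand) had 35.7, 44.1 and 44.95 CPM in the shNgb tumours, against 44.4, 38.9 and 48.2 CPM in the shVec tumours. The groups overlapped, and the log2 fold change was -0.07 (SE 0.12, 95% interval -0.35 to 0.20). Egfr (ENSMUSG00000020122, chr11:16752203-16918158, plus strand) had 41.0, 21.0 and 30.8 CPM in the shNgb tumours, against 40.1, 35.4 and 23.2 CPM in the shVec tumours. Its highest and lowest tumours, shNgb replicates 1 and 2, belonged to the same group and differed 1.95-fold. The log2 fold change of Egfr was -0.09 (SE 0.28, 95% interval -0.76 to 0.58), and both receptors had an edgeR adjusted p of 0.9997. The ratio of Erbb2 to Egfr FPKM was 1.90, 4.57 and 3.17 in the shNgb tumours and 2.41, 2.39 and 4.52 in the shVec tumours, and each group spanned about the same range. Erbb2 shares 9 of its 5210 exon bases with Mien1 on the other strand (86 to 167 reads).

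The genes closest to Egfr across the tumours were Col27a1 (likeness 0.10), a fibrillar collagen chain, Tmem150a (0.11) and Grk5 (0.12), a kinase of G protein-coupled receptors, against a spread of 0.37 for Egfr itself. Col27a1 had 70.6, 41.1 and 60.7 CPM in the shNgb tumours and 72.8, 57.8 and 44.1 CPM in the shVec tumours, with shNgb replicate 2 and shVec replicate 3 lowest, as for Egfr. The closest to Erbb2 were Coro7 (0.034), Bcl2l1 (0.044), an inhibitor of apoptosis, and Pkp3 (0.046), a desmosomal plakophilin, against a spread of 0.14. The closest to Hbegf were Mblac1 (0.11), Itpk1 (0.11), an inositol phosphate kinase, and Nubpl (0.11), an assembly factor of respiratory complex I, against a spread of 0.24. Itpk1 had 27.2, 30.6 and 25.7 CPM in the shNgb tumours, against 33.2, 37.9 and 36.5 CPM in the shVec tumours. Since Itpk1 was picked for its likeness to Hbegf over these libraries, its lack of overlap follows largely from that choice. The closest to Btc were Ccdc77 (0.021), Trmt5 (0.022), a tRNA methyltransferase, and Hccs (0.024), which attaches haem to cytochrome c, against a spread of 0.12. A gene that varies little lies close to many other steady genes, so each value is given beside the member's own spread.

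Erbb3 had 8, 17 and 4 reads in the shNgb tumours, against 3, 8 and 9 in the shVec tumours. The groups overlapped, and the two-sided exact permutation test of log2(CPM + 0.1) gave p = 0.8. Erbb3 is typical of Schwann cells and the oligodendrocyte lineage, and of the markers of those cells Sox10 had 0 to 4 reads per library and Olig1 and Olig2 had 0, whereas Cspg4, the proteoglycan NG2, took most of a list sum of 257 to 309 CPM in shNgb and 296 to 331 CPM in shVec.

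The other ligands of the family were also scarce. Of the 5 genes Epgn, Nrg1, Nrg2, Nrg3 and Nrg4, 2 passed the filter and edgeR called 0, with 0 at an unadjusted p under 0.05. Nrg1, the main neuregulin, stood at 1.19 ± 0.18 CPM in shNgb and 1.11 ± 0.04 CPM in shVec (SD, n = 3 each). Nrg4 had 1.59, 0.905 and 0.805 CPM in the shNgb tumours, against 1.002, 1.41 and 1.68 CPM in the shVec tumours, and the groups of both genes overlapped. Nrg2 had 0 to 3 reads per library and Nrg3 had 0 in all.

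The machinery that releases the ligands was well expressed and was not called as different. The list held 10 genes, sheddases, the rhomboid family and Timp3, an inhibitor of the sheddases. Of these, 9 were tested, 6 with a positive and 3 with a negative log2 fold change (median 0.036, the value of Timp3 itself). Of the 9, 0 had an edgeR unadjusted p under 0.05. Rhbdl2, with 3 to 14 reads per library, was not tested. Adam17, the main sheddase of Hbegf, Areg, Ereg and Tgfa, stood at 55.2 ± 2.85 CPM in shNgb and 52.0 ± 4.89 CPM in shVec (SD, n = 3 each). Adam9 stood at 83.5 ± 10.05 CPM in shNgb and 91.3 ± 6.29 CPM in shVec, and Adam12 at 59.6 ± 18.1 and 80.1 ± 35.0 CPM in the same order. Adam8, a metalloprotease of myeloid cells, stood at 28.0 ± 16.9 CPM in shNgb and 19.7 ± 7.66 CPM in shVec. Its shNgb mean rested on replicate 3 (47.4 CPM), and without that tumour its log2 fold change was -0.11 in place of 0.51. That tumour also had the highest macrophage sum (219 CPM). But shNgb replicate 2 had a higher macrophage sum than shNgb replicate 1 (174 against 85.4 CPM) and less Adam8 (16.9 against 19.6 CPM). In the shVec tumours both values ran in the same order. The part of macrophages in the Adam8 values was not tested.

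Receptor adaptors had log2 fold changes on both sides of 0. Of 20 adaptor genes, 18 were tested, 9 positive and 9 negative (median -0.0055), and edgeR called 0, with 0 at an unadjusted p under 0.05. Sos1, the exchange factor that loads RAS downstream of Grb2, had 72.2, 77.6 and 73.7 CPM in the shNgb tumours, against 82.0, 78.9 and 82.9 CPM in the shVec tumours. Its log2 fold change was -0.13 (SE 0.07, edgeR unadjusted p = 0.125). It was the only 1 of the 18 without overlap, where 7.1% of all tested genes had none (3.43% lower in shNgb). On the log2 scale its relative Sos2 differed by -0.14 (SE 0.10), Plcg1, a phospholipase recruited to the receptors, by -0.15 (SE 0.13) and the transcription factor gene Stat3 by 0.11 (SE 0.11).

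Of 20 inhibitor and turnover genes, 18 were tested, 12 positive and 6 negative (median 0.051), and edgeR again called 0, with 0 at an unadjusted p under 0.05. Errfi1, an inducible inhibitor of the Egfr kinase also known as MIG6, stood at 170 ± 55.3 CPM in shNgb and 229 ± 35.3 CPM in shVec (SD, n = 3 each), and the groups overlapped through shNgb replicate 2 (232 CPM). Lrig3, a transmembrane regulator of ERBB receptors, had 27.4, 25.3 and 24.5 CPM in the shNgb tumours, against 28.1, 28.8 and 30.7 CPM in the shVec tumours. Its log2 fold change was -0.18 (SE 0.10, edgeR unadjusted p = 0.0962). It was the only 1 of these 18 without overlap, again beside 7.1% of all tested genes. The log2 fold changes of Socs5 and Nrros were 0.12 (SE 0.10) and 0.57 (SE 0.39). Nrros was on the list as drawn up, but nothing in these data ties it to ERBB receptors.

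Among the genes that ERK induces downstream of the receptors most log2 fold changes were negative, and none of the genes was called. All 21 were tested. The change was negative in 17 and positive in 4, against 49.1% negative over all genes, and its median was -0.12, against 0.0026 over all genes. Of the 17, 3 are the members Hbegf, Areg and Ereg. EdgeR, DESeq2 and limma-voom called 0 of the 21. In edgeR 2 had an unadjusted p under 0.05, Hbegf and Dusp4, and these were also the 2 without overlap between the groups, both lower in shNgb, where all genes gave 1.22% and 3.43% in that direction. These counts are too small to set the list apart. The list was put together with earlier results of these data known, and it shares Hbegf, Areg and Ereg with the members, so its count is not independent of theirs. Dusp4, an ERK phosphatase, had 45.2, 45.7 and 36.6 CPM in the shNgb tumours, against 47.4, 65.9 and 57.3 CPM in the shVec tumours. Its log2 fold change was -0.42 (SE 0.14) with an edgeR unadjusted p of 0.0141 and an adjusted p of 0.9997. Spry2, a feedback inhibitor of receptor tyrosine kinases, stood at 19.7 ± 5.45 CPM in shNgb and 25.6 ± 2.61 CPM in shVec, and Ier3, an immediate early gene, at 73.0 ± 33.9 and 110 ± 13.4 CPM in the same order (SD, n = 3 each), and both overlapped.

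**Figure D5:**
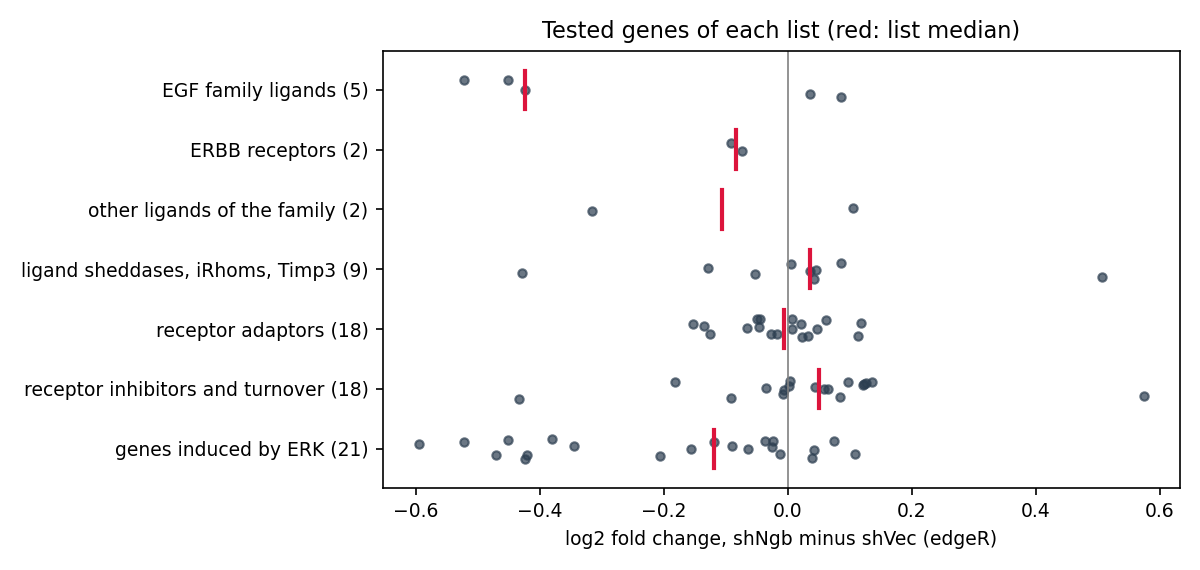
Log2 fold changes, shNgb minus shVec, of the tested genes of each list, 1 point a gene, with the list median in red and the number of tested genes in brackets. The medians run from -0.42 for the 5 tested ligands to 0.051 for the 18 tested genes of the receptor inhibitor and turnover list, and no gene was called.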

How the data were processed

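Poly(A)-selecting, unstranded TruSeq libraries from 3 ug of total RNA were made, per the labels' protocols. Bowtie 0.12.2 and the builds mm8 and mm10 are named without a role in the submitters' processing notes. Counter, annotation and treatment of reads with several hits were not stated. The authors deposited whole-number read counts per Ensembl gene without normalization, and FPKM per sample. The deposited FPKM of 11113 genes with over 50 reads in each library were the counts divided by a gene factor and a median-ratio library factor (largest relative deviation 5e-09). FPKM served for levels between genes and counts for tests.

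GENCODE M21 named 54409 of 54532 IDs. Counts were fitted with edgeR 4.0.16 (R 4.3.3): default expression filter (15203 genes), TMM, robust quasi-likelihood F-test, Benjamini-Hochberg adjustment over all tested genes, calls at an adjusted p under 0.05. SE and 95% intervals come from the F statistic. Fold changes are shNgb minus shVec. CPM are TMM scaled. The likeness measure used log2 CPM with a prior count of 2. The pipeline was tested on simulated data. Copies of the members (95% identity over 250 bases, blastn 2.17.0) were found in no other gene except an antisense transcript within Egf that had 0 reads.

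Named genes were the 10 members, the 4 tested genes of smallest p in each of 7 lists, and the 3 genes most like each member above 5 CPM. Genes outside this rule (Ngb, marker genes) check labels or cell types, and scarce list genes account for their lists. Members and lists were chosen with earlier results of these data known. The fit was repeated with 2 other scalings (RLE, upper quartile), without a filter, with a strict one (10 reads and 1 CPM in at least 3 libraries), in limma-voom (limma 3.58.1) and DESeq2 1.42.0, with a replicate block and without each library. Levels were also taken as CPM per exon kilobase.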

Additional observations from a re-analysis of the deposited data

How the results depend on the processing

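No member and no list gene was called under any of the 13 alternative fits. Over all genes the count of calls, 0 in edgeR with 392 at an unadjusted p under 0.05, became 3 without the low-count filter, 5 in DESeq2 and 1 with the replicate number as a block; the cause was not tested. Hbegf stayed negative in all 13, with log2 fold changes of -0.43 to -0.41 over the 7 other settings and -0.50 to -0.37 when a library was left out, and adjusted p-values of 0.203 (DESeq2) to 0.99997. Leaving out a library reversed the sign of Egfr (range -0.35 to 0.12), Erbb2 (-0.15 to 0.021), Egf (-0.15 to 0.17), Nrg1 (-0.022 to 0.18) and Adam8 (-0.11 to 0.87). The remaining named list genes and Btc (0.014 to 0.16), Areg (-0.76 to -0.13) and Ereg (-0.82 to -0.25) kept theirs. The replicate numbers are not stated to pair the tumours. Deviations of same-numbered tumours from their group means correlated across genes at 0.26, -0.14 and -0.10, and shNgb replicates 2 and 3 correlated best with other numbers. With the replicate block the log2 fold changes of Hbegf, Areg and Ereg were -0.42, -0.36 and -0.47. The Hbegf level of 49.2 FPKM became 24.3 CPM per kilobase of annotated exons, through the longer gene length; the other members moved by less than the spread between tumours. At these depths Egf, Tgfa and Erbb3, with 3 to 30 reads a library, allow no statement on small differences.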
